A study of Mus musculus with 10 samples.

Results

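The 8 interferon system genes described here (Ifnar1, Ifnar2, Stat2, Irf1, Bst2, Ifit2, Isg15 and Isg20) were followed through ribosome profiling of mouse cells with and without targeting of Wdr4. They were taken by name, 8 of the 21934 gene symbols in each deposited table, and were selected on input, footprint and translation efficiency values of these same libraries, so every value below is a description and carries no test. Ribosome profiling sequences the mRNA stretches that ribosomes shield from nuclease (footprints), and input RNA from the same cells gives the amount of each mRNA. Wdr4 is the partner of Mettl1 in the enzyme that places 7-methylguanosine on tRNA, and its effect on translation efficiency is the question the series' title names.

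There were 10 libraries, 1 input and 1 footprint library for each of 5 conditions. The iBMDM conditions were clonal lines of immortalized bone marrow-derived macrophages, labelled WT, sgWdr4-1 and sgWdr4-2; the sgWdr4 lines carried lentiviral guide RNAs against Wdr4 and were selected with puromycin, and whether the WT line received a control guide is not given in the sources used here. The TAM conditions were F4/80+ tumour-associated macrophages sorted by flow cytometry out of orthotopic Hepa1-6 tumours, a mouse hepatoma placed in the liver, of mice labelled Wdr4 ff and myeloid knockout Wdr4 cKO. Neither the Cre driver nor the age, number or pooling of the mice is given in the sources used here. Both guides were compared with the same WT libraries. In bulk samples of this kind, fewer cells of a type and less RNA per cell cannot be told apart.

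Several facts of the libraries bear on what follows. Of 12 macrophage markers, 9 stayed below 1 TPM in all inputs, and Adgre1 (the gene of F4/80), Aif1, C1qa and C1qb were listed at 0 in each of them. TPM is a transcript's share of a library per unit of length, scaled to a fixed sum. Summed macrophage markers ranged from 17.6 to 22.8 TPM, and Cd14 alone of them had at least 5 TPM in every input. The 10 fibroblast and stellate markers summed to 3578 TPM in WT, 4226 TPM in sgWdr4-1, 3649 TPM in sgWdr4-2, 3591 TPM in ff and 5246 TPM in cKO. Of those 10, 4 stayed under 1 TPM in every input, Lum being at 0, and 6 had at least 5 TPM in each. Macrophage is used here as the label, which these marker levels did not bear out. The 6 plasmacytoid dendritic markers, of a cell type known for interferon secretion, summed to at most 2.72 TPM, in cKO, and 4 of them were at 0 in every input. Wdr4 input was 44.6 TPM in WT, 31.3 TPM in sgWdr4-1 and 44.5 TPM in sgWdr4-2, and 39.8 TPM in ff and 20.9 TPM in cKO. Wdr4 footprints were higher in the conditions labelled as targeted, so conditions are named here by their labels only. The sgWdr4-1 footprint library stood apart, with 0.781% of its TPM in mitochondrially encoded genes against 9.94% to 14.6% in the other 4.

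Type I interferons are secreted in response to viral or damage-related nucleic acid and bind a receptor of 2 chains, encoded by Ifnar1 and Ifnar2. The kinases Jak1 and Tyk2 on those chains then phosphorylate transcription factors, Stat2 among them, and Stat2 acts with Irf9 to switch on a large set of antiviral genes, many of them through a DNA element called ISRE. Irf1 is a transcription factor induced chiefly by interferon-gamma through a second element, GAS. Macrophages both secrete and respond to interferons, and their low tonic signalling keeps many induced genes at a measurable level. Whether this holds for the cells sequenced here was not tested, and their macrophage markers were mostly below 1 TPM.

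No interferon mRNA was listed above 0 among those examined. The ligand genes (Ifna1, Ifna2, Ifna4, Ifna5, Ifnb1, Ifng, Ifnl2 and Ifnl3) were at 0 in all 10 libraries. The 8 followed genes themselves were of low to middling level: summed, they made 146 to 183 TPM of the iBMDM inputs, 152 TPM of the ff input and 240.2 TPM of the cKO input. In footprints their sum was 163 to 222 TPM in iBMDM and 219 and 168 TPM in ff and cKO. Translation efficiency was taken as log2(footprint TPM + 1) minus log2(input TPM + 1), and a gene counted as measured in a table when its mean input and mean footprint TPM were each at least 5. By that rule 7 of the 8 genes were measured in both tables and Stat2 in neither.

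**Figure D1:**
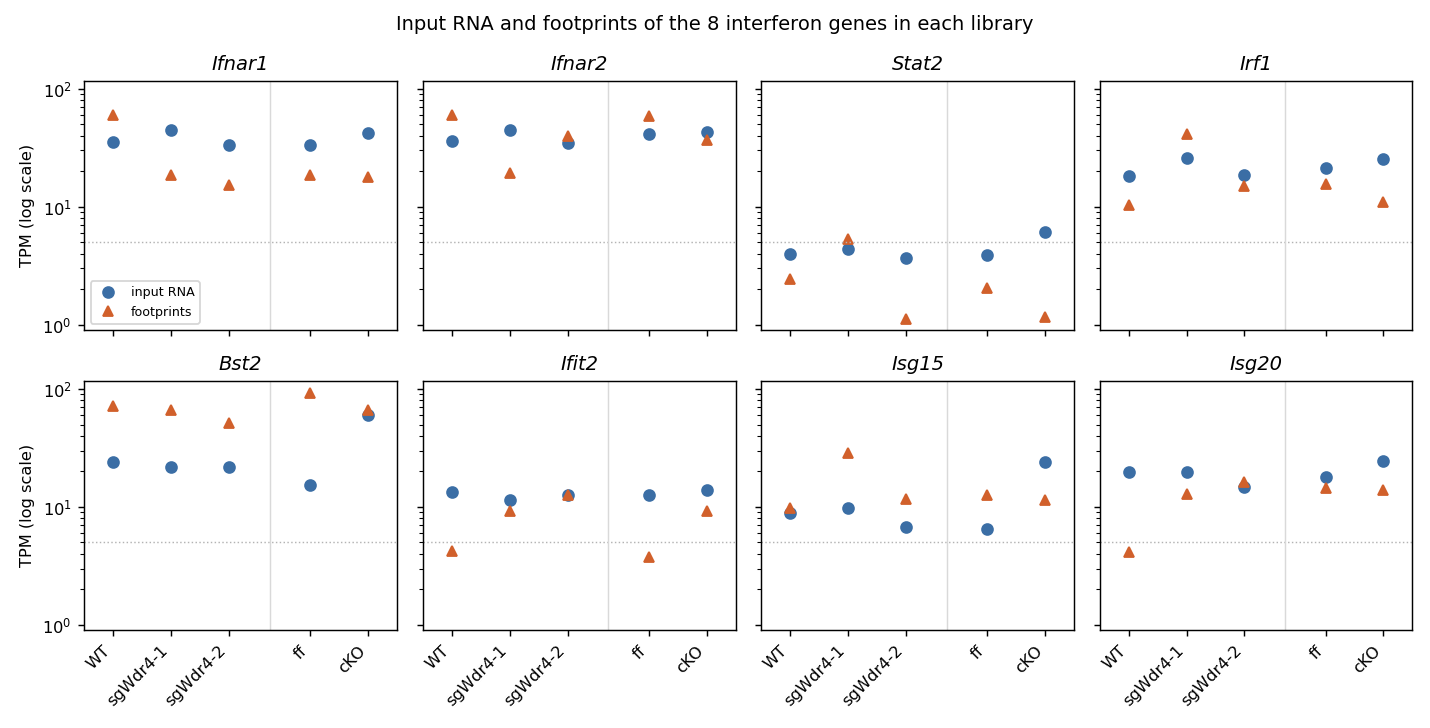
Input RNA (circles) and footprints (triangles) of each gene in TPM on a log axis, 1 library per point, with iBMDM conditions left and TAM conditions right of the grey line; the dotted line marks 5 TPM. Ifnar1 footprints stand at 59.8 TPM in WT alone, Ifit2 footprints lie under 5 TPM in WT and ff, and Bst2 and Isg15 input is highest in cKO.

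Ifnar1, the receptor chain that binds Tyk2, had a footprint level in WT that no other condition shared. Its input was 35.7 TPM in WT, 44.7 TPM in sgWdr4-1, 33.4 TPM in sgWdr4-2, 33.4 TPM in ff and 42.1 TPM in cKO. Its footprints were 59.8 TPM in WT, 18.5 TPM in sgWdr4-1, 15.2 TPM in sgWdr4-2, 18.6 TPM in ff and 17.7 TPM in cKO. Input thus stayed within a narrow band, while WT footprints were more than 3 times those of each of the other 4 libraries, that labelled ff included. The log2 change of translation efficiency was -1.95 in sgWdr4-1 and -1.81 in sgWdr4-2 against WT, and -0.39 in cKO against ff. Of all measured genes, 1.43% had a change as low or lower in sgWdr4-1, 0.504% in sgWdr4-2 and 42.4% in cKO. The tables were normalised separately, so levels set across them are descriptive. Within its own condition, Ifnar1 ranked above 86.1% of measured genes for translation efficiency in WT, and above 24.0%, 34.3%, 42.7% and 39.9% in sgWdr4-1, sgWdr4-2, ff and cKO.

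Ifnar2, the chain that carries Jak1 and holds Stat2, had more footprints than Ifnar1 in sgWdr4-2, ff and cKO. Its input was 36.2 TPM in WT, 45.01 TPM in sgWdr4-1, 34.7 TPM in sgWdr4-2, 41.4 TPM in ff and 42.8 TPM in cKO. That was close to the input of Ifnar1 in each library but ff, where Ifnar1 had 33.4 TPM. Ifnar2 footprints were 60.2 TPM in WT, 19.5 TPM in sgWdr4-1, 40.0 TPM in sgWdr4-2, 58.7 TPM in ff and 37.0 TPM in cKO. The sgWdr4-1 library was lowest, WT and ff were near equal and highest, and sgWdr4-2 and cKO lay between them. Footprints of sgWdr4-1, sgWdr4-2 and cKO all lay below those of WT and ff for 12.9% of the 6927 genes measured in both iBMDM and TAM. Translation efficiency changed by -1.89 in sgWdr4-1, -0.52 in sgWdr4-2 and -0.70 in cKO on the log2 scale. Of all measured genes, 1.71%, 19.0% and 26.4% had a change as low or lower in that order. As ff had 58.7 TPM of Ifnar2 footprints and 18.6 TPM of Ifnar1 footprints, the chains stood more than 3 times apart there, while in WT they were level.

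The other receptor chains were on a list of pathway genes chosen with earlier results of these data known. Ifngr1 and Ifngr2 form the interferon-gamma receptor, and Il10rb is a chain shared by receptors for interferon-lambda and interleukin-10. All 3 had translation efficiency at least 2-fold lower in sgWdr4-1 than in WT, where 13.7% of measured genes did. With Ifnar1 and Ifnar2 there were 5 measured chains. Those members were also at least 2-fold lower, but they were selected on these same values. Ifnlr1, also on the list, was not measured. The log2 changes were -2.40 for Il10rb, -1.30 for Ifngr2 and -1.25 for Ifngr1. Il10rb footprints were 38.7 TPM in WT, 8.43 TPM in sgWdr4-1 and 30.9 TPM in sgWdr4-2, and Ifngr1 footprints 159.8, 79.0 and 95.1 TPM. Under sgWdr4-2 only Ifnar1 of the 5 was past 2-fold (4.87% of measured genes were lower), with Il10rb at -0.16, Ifngr2 at -0.05 and Ifngr1 at -0.71. In cKO against ff none was past 2-fold (16% of measured genes were lower), with Il10rb at -0.86, Ifngr1 at -0.11 and Ifngr2 at 0.22. The sgWdr4-1 values of the whole group rest on the footprint library that stood apart, and that library's part in the result was not tested.

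Of these chains, 4 are neighbours in the genome. In the RefSeq gene order of GRCm38.p6, Ifnar2, Il10rb, Ifnar1 and Ifngr2 follow each other on chromosome 16 with no other protein-coding gene between them, and Tmem50b comes next. Tmem50b, named here for its place but after its values were seen, had log2 changes of translation efficiency of -1.51, -0.79 and -0.79 in sgWdr4-1, sgWdr4-2 and cKO. Gart, further along, was at 1.43, 0.04 and -0.57, and Son, which follows Gart, was at 0.33, -0.17 and -0.75. Within this row of genes only Ifnar1 was past 2-fold under sgWdr4-2, at -1.81, with Il10rb and Ifngr2 on either side of it at -0.16 and -0.05.

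**Figure D2:**
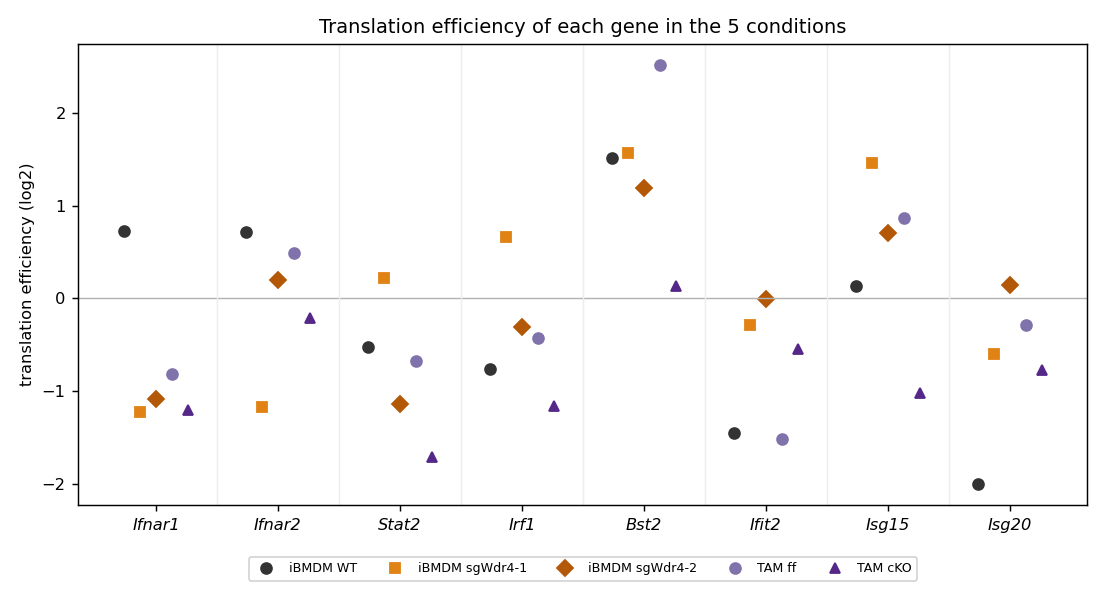
Translation efficiency, as log2(footprint TPM + 1) minus log2(input TPM + 1), of the 8 genes in each of the 5 conditions, 1 library pair per point. Ifnar1 is at 0.73 in WT and between -0.81 and -1.23 elsewhere, and Bst2 ranges from 2.52 in ff to 0.13 in cKO.

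The transcription factors of the pathway were Stat2 and Irf1. Stat2 was low throughout, with input of 3.95 TPM in WT, 4.404 TPM in sgWdr4-1, 3.68 TPM in sgWdr4-2, 3.88 TPM in ff and 6.11 TPM in cKO. Its footprints were 2.43, 5.30, 1.12, 2.06 and 1.17 TPM in the same order, too low to be read as differences with depth unknown. Apof overlaps Stat2 in the RefSeq annotation, and how the authors' counting treated shared bases is not given in the sources used here.

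Irf1 footprints were highest in sgWdr4-1. They were 10.3 TPM in WT, 41.5 TPM in sgWdr4-1, 14.9 TPM in sgWdr4-2, 15.6 TPM in ff and 10.9 TPM in cKO, on input of 18.2, 25.9, 18.6, 21.3 and 25.6 TPM. The sgWdr4-1 library was apart from the other 4, which lay within a narrow range. Translation efficiency changed by 1.42 in sgWdr4-1 (6.29% of measured genes were as high or higher), 0.45 in sgWdr4-2 and -0.73 in cKO. Irf2, a related factor that competes with Irf1 for binding, had footprints of 9.96 TPM in WT, 39.0 TPM in sgWdr4-1 and 12.1 TPM in sgWdr4-2, with translation efficiency changes of 2.20 and 0.75, and 0.23 in cKO.

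Isg20 and Ifit2 had more footprints in both guide lines than in WT, on level or lower input. Isg20 is an RNA exonuclease, and Ifit2 belongs to a family of RNA-binding antiviral proteins. Isg20 footprints were 4.15 TPM in WT, 12.8 TPM in sgWdr4-1, 16.4 TPM in sgWdr4-2, 14.4 TPM in ff and 14.0 TPM in cKO. WT was the low library, and ff and cKO lay among the guide lines or close to them. Isg20 input was 19.7, 19.96, 14.7, 17.8 and 24.6 TPM in that order, so its translation efficiency changed by 1.40 in sgWdr4-1, 2.15 in sgWdr4-2 and -0.49 in cKO. In sgWdr4-2 only 0.186% of measured genes were as high or higher. Both guide values rest on a WT footprint level under 5 TPM.

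For Ifit2 the footprint levels of the libraries labelled WT and ff lay below those of the other 3, as they did for 6.86% of the 6927 genes measured in both tables. They were 4.24 TPM in WT and 3.73 TPM in ff, against 9.28 TPM in sgWdr4-1, 12.7 TPM in sgWdr4-2 and 9.25 TPM in cKO. Ifit2 input stayed between 11.6 and 14.0 TPM in all 5 conditions. Translation efficiency was higher by 1.16 in sgWdr4-1, 1.44 in sgWdr4-2 and 0.97 in cKO; 11.1%, 0.77% and 4.34% of measured genes were as high or higher. Alone of the 7 measured genes, Ifit2 had higher footprints and higher translation efficiency in all 3 comparisons, as did 9.14% of the 6927 genes; 2 of the comparisons share WT. Both control levels are under 5 TPM, and without counts the reads behind them are unknown; with a pseudocount of 5 in place of 1 the changes became 0.77, 0.98 and 0.59.

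Isg15 and Bst2 differed most between ff and cKO, and the difference was in input RNA. Isg15 encodes a ubiquitin-like modifier that is joined to other proteins during infection, and Bst2 encodes tetherin, which holds budding virions at the cell surface. Bst2 input was 24.2 TPM in WT, 21.8 TPM in sgWdr4-1, 21.9 TPM in sgWdr4-2, 15.4 TPM in ff and 60.7 TPM in cKO. Isg15 input was 8.81, 9.80, 6.74, 6.48 and 24.3 TPM. For both, cKO was the high library and ff the lowest of the 5, and the fold between them was 3.93 for Bst2 and 3.75 for Isg15. At least 2-fold higher in cKO input were 1.42% of measured genes, 0.0845% being as high as Bst2 or higher and 0.113% as high as Isg15. The summed fibroblast and stellate markers were also higher in that input, at 5246 TPM against 3591 TPM in ff, as were the 6 hepatocyte and hepatoma markers, at 26.5 TPM against 7.92 TPM. Of the latter, 5 stayed under 1 TPM in every input, Ttr and Serpina1a were at 0, and Apoa1 was the 1 above 5 TPM. The part of these markers in the result was not tested.

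Footprints of Bst2 and Isg15 did not follow. Bst2 footprints were 71.2 TPM in WT, 66.9 TPM in sgWdr4-1, 51.3 TPM in sgWdr4-2, 93.3 TPM in ff and 66.6 TPM in cKO. Isg15 footprints were 9.75, 28.8, 11.6, 12.7 and 11.4 TPM, high in sgWdr4-1 and level in the rest. The log2 change of translation efficiency in cKO was therefore -2.39 for Bst2 and -1.90 for Isg15, where the median gene was at -0.25; relative to that gene they were at -2.14 and -1.64. Among measured genes, 0.859% were as low as Bst2 and 2.48% as low as Isg15. Bst2 went from 6.05 footprint TPM per input TPM in ff to 1.10 in cKO, that is from above 98.8% to above 76.1% of measured genes of the condition. In the guide lines Bst2 translation efficiency was at 0.05 and -0.33, of which the first turned to -0.06 when TPM was rescaled leaving out mitochondrial, ribosomal protein and histone genes, and Isg15 was at 1.33 and 0.57.

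Since input of both Bst2 and Isg15 was higher in cKO, their promoters are shown, as the 250 bases before the RefSeq start (GRCm38.p6; the files' own build is not given in the sources used here). Bst2 is at chr8:71537473-71537722 and Isg15 at chr4:156200819-156201068, both on the minus strand. Each is written 5′ to 3′ toward the gene, and capitals mark matches, on either strand, to an ISRE core (GAAA, any 2 bases, GAAA) or a GAS core (TTCNNNGAA).
Bst2: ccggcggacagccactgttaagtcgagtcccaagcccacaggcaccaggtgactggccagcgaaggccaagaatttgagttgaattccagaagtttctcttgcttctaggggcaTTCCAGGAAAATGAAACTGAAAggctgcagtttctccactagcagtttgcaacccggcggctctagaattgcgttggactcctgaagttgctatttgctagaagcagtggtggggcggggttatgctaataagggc
Isg15: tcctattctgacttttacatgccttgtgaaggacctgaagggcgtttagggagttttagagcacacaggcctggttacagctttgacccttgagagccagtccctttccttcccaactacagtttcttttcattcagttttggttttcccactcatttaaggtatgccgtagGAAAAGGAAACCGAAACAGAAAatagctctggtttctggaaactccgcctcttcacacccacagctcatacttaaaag
In Bst2 a GAS match beginning 136 bases before the start runs into ISRE matches beginning at 130 and 124 bases. In Isg15 there are 3 overlapping ISRE matches, beginning 78, 72 and 66 bases before the start. Of the 8 genes, all of which are in the promoter table, 3 held an ISRE core in a window (Bst2, Isg15 and, at 222 bases, Stat2), against 3.46% of the 27025 genes there. A GAS core was found for 5 (Bst2, Irf1, Isg20, Ifnar2 and Ifit2), against 8.13%. Induced genes of the pathway list with a promoter entry and at least 1 TPM in the ff input were also examined. An ISRE core was found for 2 of the 5 that were 2-fold higher in cKO input and for 4 of the 16 that were not. For a GAS core it was 0 of 5 and 3 of 16. Whether matches go with the input change was not tested. Such matches are letters in a window and do not show binding, and a gene with no match may use an element elsewhere.

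**Figure D3:**
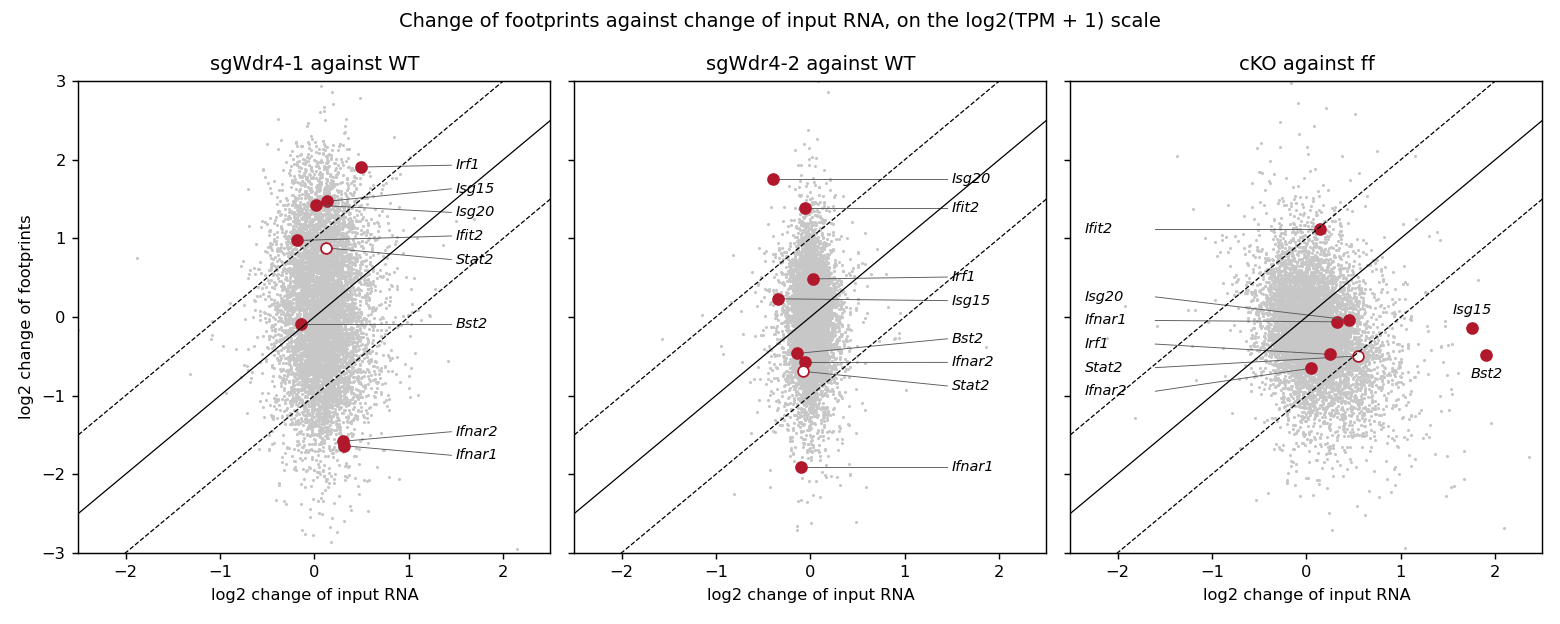
Log2 change of footprints (vertical) against log2 change of input RNA (horizontal) on the log2(TPM + 1) scale, with all measured genes in grey, the 7 measured members in red and Stat2 as an open circle; the solid line is equal change and the dashed lines a 2-fold change of translation efficiency. Under the guides the genes spread vertically, with Ifnar1 at -1.64 and -1.91 for footprints, whereas in cKO Bst2 and Isg15 lie far to the right at input changes of 1.91 and 1.76.

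Counted over the 7 measured genes, input RNA was at least 2-fold apart for none under either guide. In cKO it was 2-fold higher for Bst2 and Isg15 and 2-fold lower for none. Among all measured genes 0.318% were higher and 0.0796% lower in sgWdr4-1 input, 0.0265% and 0.0398% in sgWdr4-2, and 1.42% and 0.169% in cKO. The median input change of the 7 was 0.14, -0.10 and 0.32, beside 0.08, 0.01 and 0.06 for all genes.

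Footprints were 2-fold higher in sgWdr4-1 for Irf1, Isg15 and Isg20 and lower for Ifnar1 and Ifnar2 (16.1% and 10.3% of measured genes), higher in sgWdr4-2 for Ifit2 and Isg20 and lower for Ifnar1 (3.03% and 4.63%), and higher in cKO for Ifit2 alone, with none lower (2.73% and 8.15%). Translation efficiency was 2-fold higher for 4 genes and lower for 2 in sgWdr4-1 (14.8% and 13.7%), higher for 2 and lower for 1 in sgWdr4-2 (3.53% and 4.87%), and higher for none and lower for 2 in cKO (4.03% and 16%). The median translation efficiency change of the 7 was 1.16, 0.45 and -0.70, beside 0.01, -0.05 and -0.25 for all measured genes. When the libraries were brought to one common median, which moved the median gene by 0.29 for translation efficiency in cKO, the shares of all genes became 8.48% higher and 9.39% lower in cKO translation efficiency and 4.64% and 3.99% in sgWdr4-2. For footprints they became 12.9% and 13.8% in sgWdr4-1 and 5.31% and 4.94% in cKO, for sgWdr4-1 input 0.119% and 0.106%, for sgWdr4-2 input 0.0133% and 0.0398%, and for cKO input 0.859% and 0.211%. Leaving out mitochondrial, ribosomal protein and histone genes gave 6.35% and 12.3% for cKO translation efficiency, 3.89% and 6.49% for cKO footprints, 12.2% and 14.7% for sgWdr4-1 footprints and 0.212% and 0.106% for sgWdr4-1 input. The members' values were known when they were proposed, so their counts are not evidence for the group.

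Among the other genes of the pathway, 85 were listed and 83 were in the tables, of which 27 were measured in iBMDM and 25 in TAM. Many induced genes that mark a strong interferon response were near 0: input was under 1 TPM in every library for 15 of the 47 induced genes in the tables, among them Mx1 (at most 0.077 TPM), Oas2 (at most 0.121 TPM) and Rsad2 (at most 0.031 TPM). Irf8, a factor of macrophages and dendritic cells, reached 0.077 TPM. Others were plentiful, such as Ifitm2 and Ifitm3, which block virus entry, with input of 199 to 219 TPM and 66.0 to 96.8 TPM.

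In sgWdr4-1, 7 of 27 measured list genes had translation efficiency at least 2-fold higher, and 4 lower, against 14.8% and 13.7% of all genes. The highest were Irf2 (2.20), Irgm1, a GTPase of pathogen defence (1.85), and the DNA sensor Cgas (1.58) with Mavs, the adaptor of RNA sensing (1.32). The lower ones were the 3 receptor chains above and the chemokine Cxcl10 (-1.01). In sgWdr4-2 none was higher and 2 were lower, against 3.53% and 4.87% of all genes. A footprint minimum of 10 TPM left out both lower genes, as each was under it in sgWdr4-2. It therefore cannot show whether those calls hold. The 2 were Irf3 (-1.73) and Eif2ak2 (-1.03), the double-stranded RNA kinase PKR. Irf3, which turns on interferon genes after nucleic acid sensing, had footprints of 20.9 TPM in WT, 41.1 TPM in sgWdr4-1 and 7.23 TPM in sgWdr4-2, and 22.2 TPM in ff and 8.79 TPM in cKO. Its input lay between 25.5 and 33.9 TPM, so the library labelled sgWdr4-2 and that labelled cKO were low, and sgWdr4-1 was high. The list's median translation efficiency change was 0.47 in sgWdr4-1 and -0.16 in sgWdr4-2.

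In cKO none of 25 measured list genes was 2-fold higher in translation efficiency and 6 were lower, against 4.03% and 16% of all genes; 2 of 14 were lower with a minimum mean of 20 TPM. They were Irf3 (-1.51) and the induced genes Ifi27 (-1.88), Zc3hav1 (-1.83), Ifi35 (-1.75), Plscr1 (-1.65) and Pml (-1.23). For Zc3hav1, which encodes the antiviral protein ZAP, ff and cKO had 46.5 and 85.3 TPM of input and 14.3 and 6.80 TPM of footprints. Plscr1 footprints were 42.3 TPM in ff and 17.3 TPM in cKO on input of 52.9 and 70.2 TPM. The list's median was -0.66, beside -0.25 for all measured genes.

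**Figure D4:**
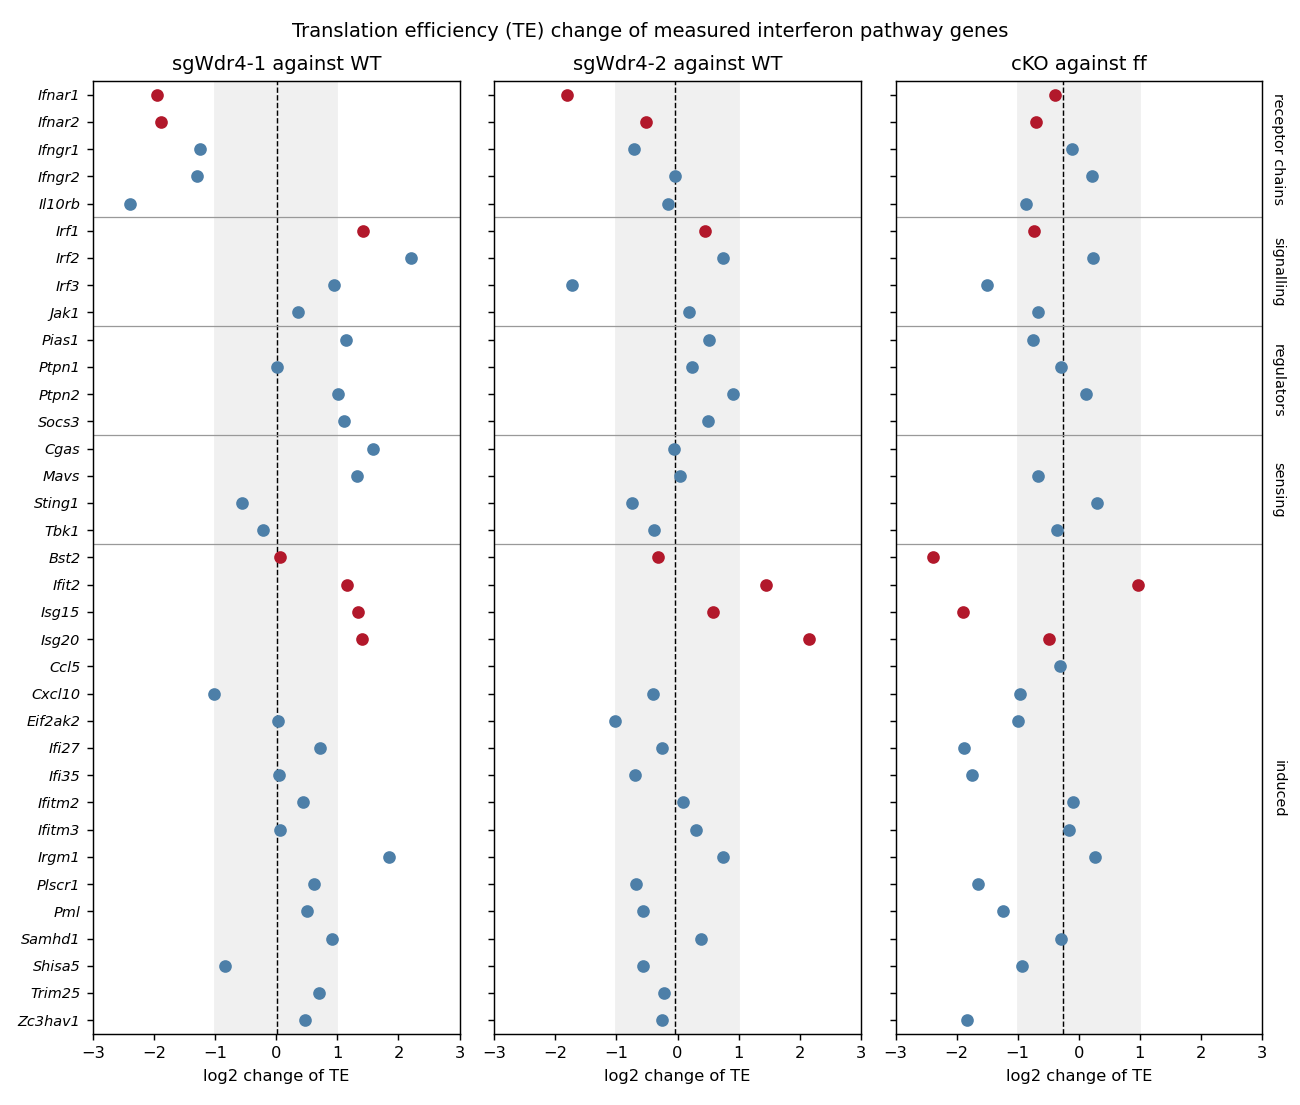
Log2 change of translation efficiency of the measured interferon pathway genes by role, the 7 measured members in red and other list genes in blue, 1 library pair per condition; grey marks less than 2-fold and the dashed line the median of all measured genes. All 5 measured receptor chains lie left of the grey band in sgWdr4-1, with Ifnar1 and Ifnar2 selected on these values. Ifnar1 alone of the chains does in sgWdr4-2, and in cKO the genes to the left are mainly induced ones.

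Many low-level induced genes also had more input RNA in cKO. The footprint minimum leaves such genes out, so input was also examined for genes with at least 1 TPM in the control input, a filter chosen after the values were seen. On that footing 8 of 25 induced list genes were at least 2-fold higher in cKO and none lower, where 1.95% of 10462 genes were higher and 0.335% lower. They were Gbp2 (1.74), Ifi27 (1.55), Nmi (1.49), Ccl5 (1.39), Ifit1 (1.33), Samd9l (1.06), Parp9 (1.06) and Xaf1 (1.04). All of them but Ifi27 were under 5 TPM in the ff input, from 1.08 TPM for Ifit1 to 4.89 TPM for Ccl5. With depth unknown, the reads behind such levels are unknown too. For Ifi27 the ff and cKO inputs were 32.4 and 96.6 TPM, and for Gbp2, a guanylate-binding protein, 1.24 and 6.51 TPM. Of the 25 genes, 23 were higher in cKO at any size, as were 62.2% of all genes, and their median was 0.67 beside 0.10 for all genes. With libraries rescaled to the same median, 5 of the 25 passed 2-fold.

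The guide lines showed this to a lesser degree or not at all. In sgWdr4-1 input 2 of 24 induced genes were past 2-fold, Xaf1 and Gbp2 (0.582% of all genes, with 0.239% lower), with a median of 0.24, and none passed after rescaling to the same median. In sgWdr4-2 none was (0.115% of all genes, with 0.296% lower), with a median of -0.03. Xaf1 input, for example, was 1.65 TPM in WT, 4.597 TPM in sgWdr4-1 and 1.86 TPM in sgWdr4-2, and 1.57 and 4.27 TPM in ff and cKO. The difference between comparisons was not tested. The summed fibroblast and stellate markers were highest in the same inputs, at 5246 TPM in cKO and 4226 TPM in sgWdr4-1. So were the hepatocyte and hepatoma markers, at 26.5 TPM in cKO and 21.4 TPM in sgWdr4-1. Their sum was 8.31 TPM in WT, 8.18 TPM in sgWdr4-2 and 7.92 TPM in ff. Of these 6 markers 5 stayed under 1 TPM in every input, and Apoa1 alone was above 5 TPM. The part of either list in the result was not tested.

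**Figure D5:**
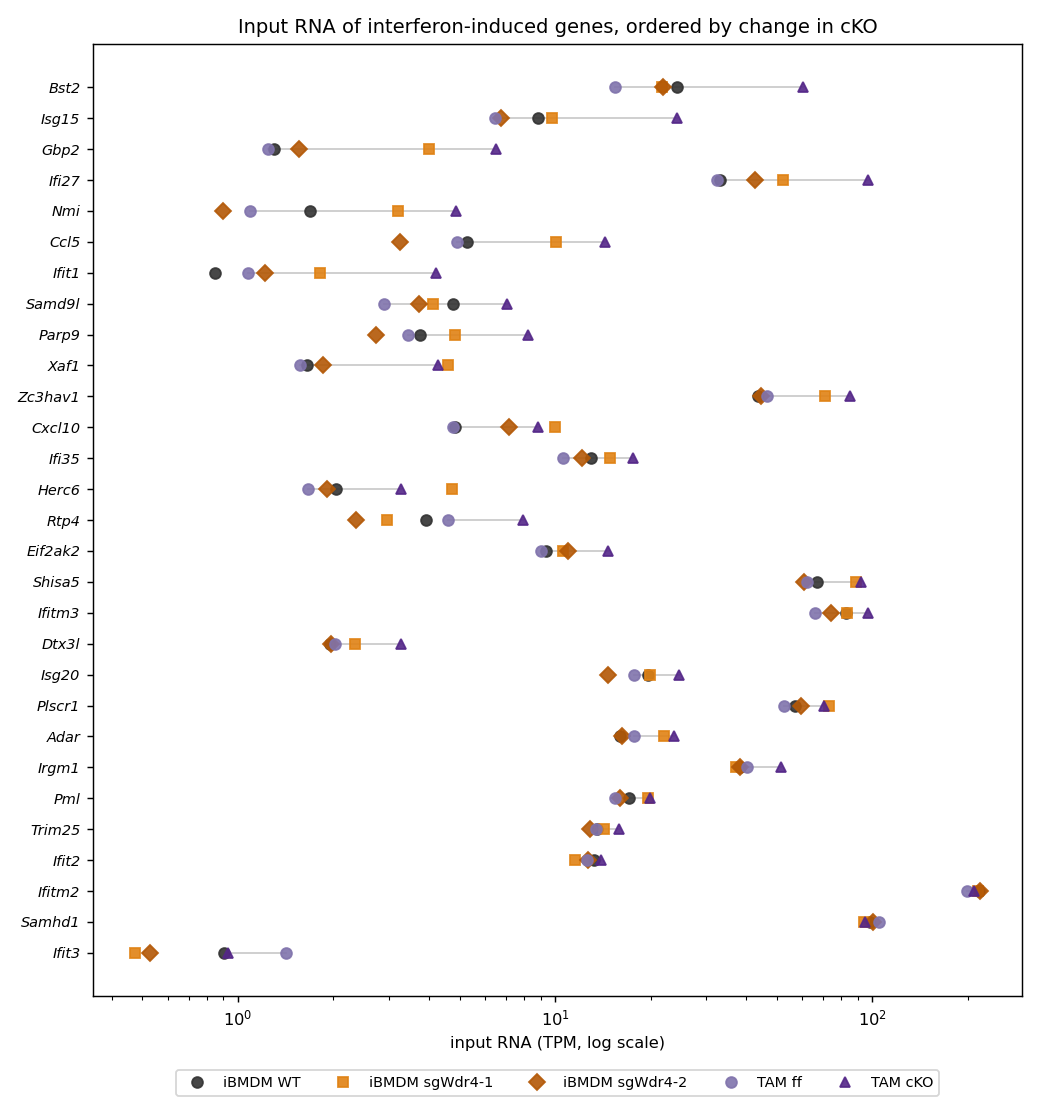
Input RNA in TPM (log axis) of Bst2, Ifit2, Isg15, Isg20 and the 25 induced list genes with at least 1 TPM in the ff input, ordered by their change in cKO, 1 library per point, with a grey line joining ff and cKO. The cKO points lie to the right of ff for most genes, Bst2 among them (15.4 and 60.7 TPM), while Ifit2 shows little difference.

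Genes whose pattern was most like that of Ifnar1 were sought over 6 values, the log2 changes of input and of footprints in the 3 comparisons, among 5172 genes whose means reached 10 TPM for both kinds of library in each table. Of the nearest 5, those given here were Kansl3 (distance 0.33), Senp6 (0.62), Derl2 (0.78) and Plpp5 (0.79), where the median gene lay at 2.78. Kansl3, of a chromatin-modifying complex, had translation efficiency changes of -1.85, -1.78 and -0.19 in sgWdr4-1, sgWdr4-2 and cKO. Senp6, a SUMO protease, was at -1.70, -1.76 and 0.05. Like Ifnar1 these were low under both guides, which share the WT library, and within 2-fold in cKO. That likeness follows from how they were picked. For Bst2 the nearest were the transcription factor Cebpb (0.75), Inhba (1.05), Nucb2 (1.11), Pdgfa (1.14) and Htra1 (1.15), with the median gene at 2.22. Cebpb input was higher by 1.49 in cKO with footprints at -0.73, and its translation efficiency was at -2.23.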

How the data were processed

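Input RNA and ribosome footprints were measured in 5 conditions, 1 library each. The authors deposited TPM values per gene in 2 tables, 6 iBMDM and 4 TAM libraries, normalised separately; fastp 0.18.0 and Bowtie2 are named in the submitters' processing notes, while neither quantifier, build nor annotation is given in the sources used here. As TPM holds no depth, no counting interval can be given. Of repeated symbols the row with the highest mean was kept. Changes were differences of log2(TPM + 1), which understate those of low genes, computed over all genes whose mean input and mean footprint TPM were each 5 or more (7536 iBMDM, 7101 TAM). A gene was called at 2-fold (1 on the log2 scale). With 1 library per condition no p-value is given. The members, the pathway list and the markers were chosen with earlier results of these data known. Named were the members, list genes past 2-fold (at most 4 per direction, measure and comparison, although more were named in the cKO paragraphs after their values were seen) and the 5 nearest genes to Ifnar1 and Bst2, gene models and pseudogenes left out; some of these genes are not reported here. The remaining list genes given by level, Tmem50b, Gart and Son were also chosen after their values were seen. Promoters came from RefSeq (GRCm38.p6). The change function was tested on simulated data. Alternatives were other pseudocounts, minimums and scalings, of which the footprint minimum and those on induced genes were chosen after seeing the data. Computation used pandas 2.3.3 and numpy 2.4.6 under Python 3.11.15, with matplotlib 3.10.9 for plots.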

Additional observations from a re-analysis of the deposited data

Results flagged for a closer look

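In 4 cases a log2 change had one sign under both guides and the other in cKO, and was past 2-fold in cKO or under both guides. Opposite changes that were past 2-fold neither in cKO nor under both guides are not listed. Irf1 footprints, at 1.91 in sgWdr4-1, 0.48 in sgWdr4-2 and -0.48 in cKO, are an example. None of these differences was tested, the guides share the WT libraries, and each value rests on 1 library per condition. Bst2 input was at -0.14 in sgWdr4-1 and -0.14 in sgWdr4-2 but at 1.91 in cKO. Isg15 translation efficiency was at 1.33 and 0.57 under the guides and at -1.90 in cKO. Isg20 footprints were at 1.42 and 1.76 under the guides and at -0.038 in cKO, a sign that was lost with rescaling to the same median (0.17) and with rescaling that left out mitochondrial, ribosomal protein and histone genes (0.07). Isg20 translation efficiency was at 1.40 and 2.15 under the guides and at -0.49 in cKO.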

How the results depend on the processing

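No paired analysis was possible because each condition has 1 library of each kind, so leaving out a replicate was not possible either. No 2-fold change of a member turned its sign under the alternatives run. With a pseudocount of 5 the counts of members 2-fold higher became 2 for translation efficiency in sgWdr4-1 (from 4), 1 for footprints and 1 for translation efficiency in sgWdr4-2 (each from 2), and 0 for footprints in cKO (from 1). With a minimum mean of 20 TPM, which left 4 members in iBMDM and 2 in TAM, they were 1 for footprints and 1 for translation efficiency in sgWdr4-1 (from 3 and 4), 0 and 0 in sgWdr4-2, 0 for footprints and 1 for input in cKO (from 1 and 2), and 1 was lower in cKO translation efficiency (from 2). A footprint minimum of 10 TPM in both libraries of a comparison, added after seeing the data, gave 1 and 1 in sgWdr4-1, 0 and 0 in sgWdr4-2 and 0 for footprints in cKO. Both minimums leave fewer genes to count. The footprint minimum also removes a gene that is low in 1 library of a comparison, so a drop in a count under it does not show that a call fails. For translation efficiency in cKO 1 gene, Ifit2, was 2-fold higher with a pseudocount of 0.5, with rescaling to the same median, and with rescaling that left out mitochondrial, ribosomal protein and histone genes, where none was otherwise. Induced list genes 2-fold higher in input, in cKO, numbered 2 of 13 with the minimum of 5 TPM and 5 of 25 with rescaling to the same median, against 8 of 25; in sgWdr4-1 they numbered 0 under each, against 2. With that rescaling all genes 2-fold apart in cKO translation efficiency were 602 higher and 667 lower, against 286 and 1135. The remaining 115 counts of members and of induced genes were unchanged or within 1.5 times. Many of these were 0 under both settings, such as the counts of members past 2-fold in input under the guides. For the pathway list, 38 counts moved by more. Its translation efficiency counts in sgWdr4-1 were 7 higher and 4 lower, and the higher count became 3 with a pseudocount of 5, 2 with the minimum of 20 TPM and 3 with the footprint minimum. In sgWdr4-2 they were 0 higher and 2 lower; the lower count became 1 with a pseudocount of 5, 1 with the minimum of 20 TPM, 1 with rescaling to the same median (1 higher) and 0 with the footprint minimum. In cKO the 6 lower became 2 of 14 with the minimum of 20 TPM and 2 of 16 with the footprint minimum. With no minimum, over 83 genes, higher and lower were 12 and 10 in sgWdr4-1, 5 and 4 in sgWdr4-2 and 1 and 25 in cKO.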
